A study of Mus musculus with 32 samples.

Results

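Aminoacyl-tRNA synthetases are the enzymes that attach each amino acid to its own transfer RNA. They were chosen here by symbol, as every gene named with a 1-letter amino acid code followed by ars, with an optional 1, 2, 3, a or b, together with Eprs1. The rule found 38 genes, and all 38 were listed in both deposited tables, among 12053 genes with a symbol in 1 mM glucose and 12791 in 10 mM glucose. The 17 symbols ending in 2 were taken as the mitochondrial enzymes and the other 21 as the cytosolic enzymes. Kars1 and Gars1 stand in the cytosolic class although each gene is known to encode both a cytosolic and a mitochondrial enzyme.

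All cells were Acly KO mouse embryonic fibroblasts, a cell line without the mouse gene for ATP-citrate lyase, which cleaves citrate to cytosolic and nuclear acetyl-CoA. The Nuc cells carried mCherry-tagged human ACLY with additional nuclear import sequences. The Cyto cells carried mCherry-tagged human ACLY with a nuclear export sequence. WT cells carried the tagged human ACLY without an added sequence, and KO cells carried mCherry alone in the same vector. The knockout of the mouse gene and the mCherry tag are thus common to the 4 groups, and the labels do not say whether a group derives from 1 clone. Cells were kept for 24 h in DMEM with 10% CS, antibiotics and either 1 mM glucose (batch 1 of the labels) or 10 mM glucose (batch 2). There were 4 libraries of each construct in 1 mM glucose. For 10 mM there were 4 of Nuc, WT and KO and 3 of Cyto, since the submitters describe Cyto replicate 3 as an anomaly. Of 32 labelled libraries, 31 were analysed. Whether replicate libraries stem from separate cultures is not in the labels, so p-values measure the spread between these samples alone, which may be technical.

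Each synthetase reads 1 amino acid and the matching transfer RNAs, and the charged transfer RNAs then enter the ribosome. The cytosolic enzymes serve protein synthesis from nuclear messages, and several of them sit together in the multisynthetase complex. The mitochondrial enzymes are encoded in the nucleus, imported, and charge the transfer RNAs that read the messages of the mitochondrial genome. Many cytosolic synthetase genes are known targets of ATF4, the transcription factor that the integrated stress response turns on when uncharged transfer RNAs activate the kinase GCN2 or when unfolded proteins activate PERK. ATF4 pairs with C/EBP proteins on composite sites with the core TGATGNAA.

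The promoters of 28 of the 38 genes were in the RefSeq table used (GRCm38.p6, 250 bases before to 50 bases after the annotated start, 300 in all). Genes with no entry there included Wars1, Vars1, Cars1, Rars1, Lars1, Nars1, Hars1, Hars2 and Pars2. The letters TGATGNAA, or their reverse complement TTNCATCA, were searched on both strands, with no other motif. They were in 5 of the 14 cytosolic promoters and in 0 of the 14 mitochondrial ones, against 1304 of all 32851 promoters of the table (3.97%). The 5 are shown because they hold the match. Aars1, Gars1, Tars1 and Yars1 were called higher than KO in Nuc, Cyto and WT cells in 1 mM glucose, and Iars1 in Nuc and Cyto cells (0.47 and 0.59 on the log2 scale, against 0.11 in WT cells, which was not called, limma adjusted p = 0.297). Sars1, Eprs1, Kars1 and Farsb, whose promoters hold no match, were also called higher than KO in the 3 constructs in that medium. The promoter of Tars3, a cytosolic gene called lower than KO in both media, is shown as one of those without a match. Capitals mark the motif on either strand, and positions are counted from the annotated start, whose first base is 1 and the base before it -1.
Aars1, alanyl-tRNA synthetase, chr8:111033592-111033891, plus strand, motifs starting at -112 and 10: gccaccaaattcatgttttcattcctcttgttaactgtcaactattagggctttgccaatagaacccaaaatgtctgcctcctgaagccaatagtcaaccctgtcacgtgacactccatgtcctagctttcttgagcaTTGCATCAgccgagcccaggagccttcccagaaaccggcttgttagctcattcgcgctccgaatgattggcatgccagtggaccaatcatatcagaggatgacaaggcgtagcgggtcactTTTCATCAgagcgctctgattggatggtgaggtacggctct
Gars1, glycyl-tRNA synthetase, chr6:55037751-55038050, plus strand, motif starting at -30: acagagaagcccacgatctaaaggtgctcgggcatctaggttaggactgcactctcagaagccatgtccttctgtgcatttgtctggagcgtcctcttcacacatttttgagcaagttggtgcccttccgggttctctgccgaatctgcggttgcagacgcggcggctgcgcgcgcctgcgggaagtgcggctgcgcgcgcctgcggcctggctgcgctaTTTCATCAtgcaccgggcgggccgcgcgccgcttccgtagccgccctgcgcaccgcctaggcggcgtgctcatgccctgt
Iars1, isoleucyl-tRNA synthetase, chr13:49681880-49682179, plus strand, motif starting at 8: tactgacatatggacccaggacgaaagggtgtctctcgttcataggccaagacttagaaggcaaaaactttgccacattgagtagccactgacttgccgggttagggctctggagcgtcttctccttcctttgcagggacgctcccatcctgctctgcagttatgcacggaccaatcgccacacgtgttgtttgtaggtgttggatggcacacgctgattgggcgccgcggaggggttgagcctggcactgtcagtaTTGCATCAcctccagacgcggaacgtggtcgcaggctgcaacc
Tars1, threonyl-tRNA synthetase, chr15:11399609-11399908, minus strand, motif starting at -15: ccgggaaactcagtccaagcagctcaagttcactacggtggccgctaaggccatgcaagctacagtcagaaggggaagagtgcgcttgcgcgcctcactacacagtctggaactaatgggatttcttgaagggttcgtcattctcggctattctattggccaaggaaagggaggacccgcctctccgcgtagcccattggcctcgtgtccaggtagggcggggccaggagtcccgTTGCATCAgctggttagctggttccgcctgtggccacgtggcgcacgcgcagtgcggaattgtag
Yars1, tyrosyl-tRNA synthetase, chr4:129189653-129189952, plus strand, motif starting at 4: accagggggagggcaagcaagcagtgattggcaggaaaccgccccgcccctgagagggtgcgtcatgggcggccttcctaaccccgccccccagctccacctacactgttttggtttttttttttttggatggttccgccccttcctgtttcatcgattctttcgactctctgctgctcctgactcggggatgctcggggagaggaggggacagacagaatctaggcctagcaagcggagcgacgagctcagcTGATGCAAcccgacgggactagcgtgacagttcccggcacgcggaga
Tars3, the second cytosolic threonyl-tRNA synthetase, chr7:65644648-65644947, plus strand, no match in this window: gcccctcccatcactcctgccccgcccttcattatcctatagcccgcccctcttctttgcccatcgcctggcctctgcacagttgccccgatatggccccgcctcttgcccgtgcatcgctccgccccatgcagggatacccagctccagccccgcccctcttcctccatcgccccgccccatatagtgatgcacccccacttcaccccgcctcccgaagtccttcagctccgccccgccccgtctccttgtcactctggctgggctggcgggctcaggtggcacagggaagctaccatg
A match is a run of letters and not evidence that ATF4 bound there, and a promoter without one may hold other sites outside this window.

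The values are log2 expression on a scale close to CPM, but the back-transformed values did not sum to a common total. As a multiple of the CPM total, the sums ran from 0.933 to 1.098 in 1 mM and from 0.952 to 1.032 in 10 mM glucose. KO libraries had the lowest sums, at most 0.966 in 1 mM and 0.971 in 10 mM glucose. Every library with ACLY was above them in its medium, from 0.973 and 1.006 upward. Depth is unknown, so no counting error is stated. Acly itself averaged 8.97, 10.50, 10.57 and 5.35 in Nuc, Cyto, WT and KO cells kept in 1 mM glucose. With 10 mM it averaged 9.12, 9.74, 10.21 and 5.87, so KO cells were lowest in each medium. The sources used here do not say whether reads of the human transgene were assigned to the mouse gene. All 10 fibroblast markers were listed, and their summed level was 54180 to 59040, 34450 to 37830, 58750 to 67670 and 36530 to 43160 CPM in Nuc, Cyto, WT and KO cells in 1 mM glucose. With 10 mM glucose the same sum was 49440 to 52800, 36730 to 40240, 44320 to 45750 and 25820 to 26840. The defining epithelial, endothelial, immune and muscle genes Epcam, Cdh1, Cdh5, Ptprc and Myod1 were listed in neither table, and the listed genes of those 4 lists summed to at most 50.4, 5.68, 4.75 and 16.2 CPM. The share of mitochondrially encoded transcripts was 1.51%, 0.958%, 1.25% and 1.76% in Nuc, Cyto, WT and KO cells in 1 mM glucose. The same share with 10 mM was 4.16%, 4.07%, 3.51% and 4.74%, and its part in the other results was not tested. Of the libraries in 1 mM glucose, WT replicate 2 stood apart, with a mean deviation from its group's medians of 0.335 on the log2 scale, against a median of 0.115 over the 16 libraries. Of the others, Nuc replicate 4 (0.261) and KO replicate 1 (0.252) of the 10 mM medium were farthest, against a median of 0.146. In bulk samples, fewer cells of a kind and less RNA per cell cannot be told apart.

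In 1 mM glucose most cytosolic synthetase genes were higher in cells with any form of ACLY than in KO cells. Of the 21, 16 rose and 1 fell in Nuc cells, 17 rose and 2 fell in Cyto cells, and 17 rose and 1 fell in WT cells (limma, adjusted p under 0.05). The median log2 fold change over the 21 was 0.49 in Nuc, 0.59 in Cyto and 0.43 in WT cells, against values between -0.03 and 0 over all genes. The backgrounds are high in these comparisons. Of all genes, 60% were called between Nuc and KO (30.5% higher, 29.5% lower), 64.7% between Cyto and KO (31.7% higher, 33% lower) and 58.2% between WT and KO (29.7% higher, 28.5% lower). The 3 comparisons share the same 4 KO libraries, so they are given side by side and not as separate support for each other. The 17 mitochondrial genes moved in both directions. Of these, 7 rose and 3 fell in Nuc cells, 6 rose and 5 fell in Cyto cells, and 9 rose and 3 fell in WT cells, with medians of -0.03, -0.08 and 0.21. Without WT replicate 2, the members called between WT and KO were 24 higher and 4 lower, against 26 higher and 4 lower with it.

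**Figure D1:**
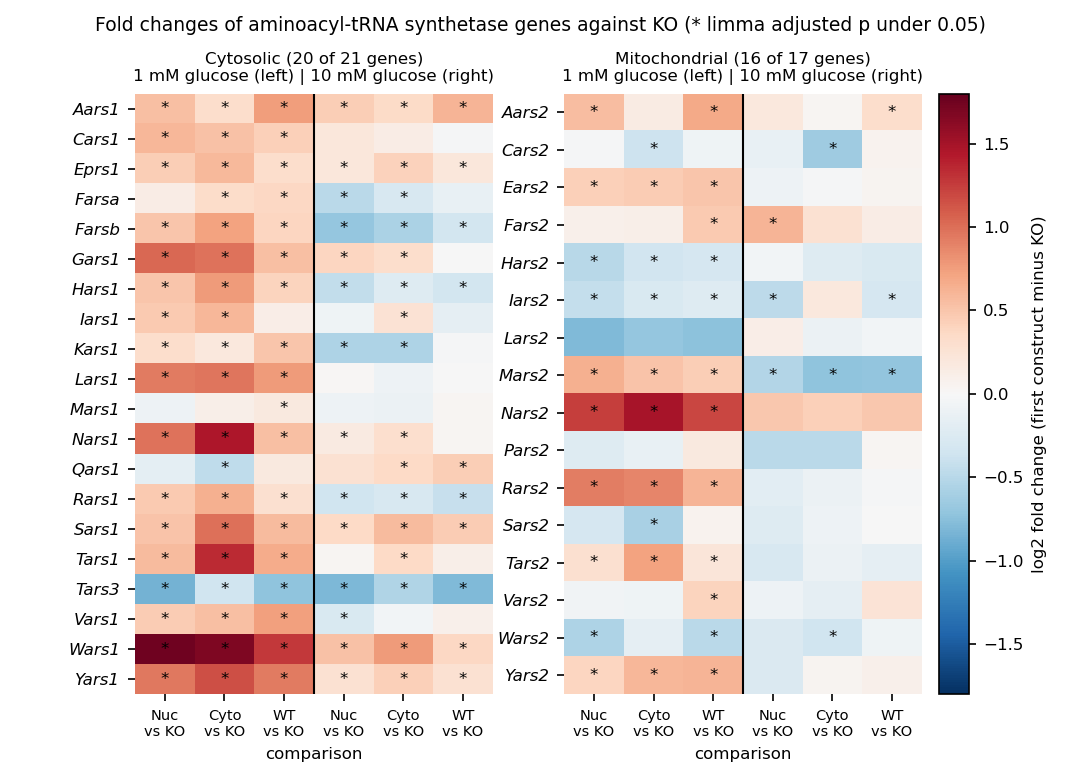
Log2 fold change of 20 cytosolic and 16 mitochondrial synthetase genes (rows) for Nuc, Cyto and WT cells against KO cells (columns), with 1 mM glucose left of the black line in each panel and 10 mM right of it. Asterisks mark a limma adjusted p under 0.05. The 1 mM columns of the cytosolic panel are mostly red, with Tars3 blue throughout and Qars1 blue in Nuc and Cyto cells, whereas its 10 mM columns mix both colours.

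Wars1, the cytosolic tryptophanyl-tRNA synthetase, had the highest fold change of the members in each of the 3 comparisons with KO in 1 mM glucose. Its log2 values were 8.57, 8.42, 8.45 and 8.42 in Nuc cells, 8.42, 8.45, 8.38 and 8.35 in Cyto cells, 7.95, 8.14, 7.95 and 7.94 in WT cells and 6.71, 6.78, 6.65 and 6.73 in KO cells. Every library with ACLY lay more than 1 log2 unit above every KO library. The log2 fold change over KO was 1.75 in Nuc (a 3.36-fold difference, adjusted p = 2.86e-13), 1.68 in Cyto (4.33e-13) and 1.28 in WT cells (1.53e-11), each with a standard error of 0.06 (limma). In humans and mice Wars1 is also known as an interferon gamma response gene. Of 5 listed genes of that response, 1 rose and 2 fell in Nuc, 2 rose and 3 fell in Cyto, and 0 rose and 3 fell in WT cells (at unadjusted p under 0.05 also 0 rose). Of all genes, 60%, 64.7% and 58.2% were called in Nuc, Cyto and WT cells, so the calls in Nuc and WT cells were near that background. Irf1, a transcription factor of that response, fell by 1.70, 1.14 and 1.18 in Nuc, Cyto and WT cells relative to KO. Whether Wars1 moved through that response was not tested.

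Aars1, the alanine enzyme with the pair of motifs shown above, followed another order among the constructs. Its log2 values in 1 mM glucose were 9.70, 9.68, 9.72 and 9.71 in Nuc cells, 9.50, 9.44, 9.47 and 9.46 in Cyto cells, 9.87, 10.02, 9.88 and 9.86 in WT cells and 9.11, 9.22, 9.13 and 9.15 in KO cells. The 4 groups did not overlap, with WT highest and KO lowest. Against KO the log2 difference was 0.55 in Nuc, 0.32 in Cyto and 0.75 in WT cells (limma adjusted p = 2.86e-08, 1.45e-05 and 9.73e-10).

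Other cytosolic genes with large increases included those that charge asparagine, threonine, glycine, tyrosine and leucine. Nars1, the asparagine enzyme, was higher by 0.98 in Nuc, 1.45 in Cyto and 0.54 in WT cells on the log2 scale. Tars1 was higher by 0.57, 1.34 and 0.67, Gars1 by 1.03, 0.98 and 0.54, Yars1 by 0.95, 1.15 and 0.94 and Lars1 by 0.94, 0.96 and 0.77. All 15 of these differences were called (limma, adjusted p from 1.13e-11 for Nars1 in Cyto cells to 6.29e-05 for Gars1 in WT cells). Sars1 (serine) was higher by 0.51, 0.99 and 0.56, and Vars1 (valine) by 0.46, 0.54 and 0.75, all called. Nars1 and Tars1 had their highest fold change in Cyto cells, and both were higher in Cyto than in Nuc cells.

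Tars3, a threonyl-tRNA synthetase that resembles Tars1, moved the other way. Its log2 values in that medium were 3.61, 4.01, 3.82 and 3.69 in Nuc cells, 4.17, 4.35, 4.38 and 4.21 in Cyto cells, 4.14, 3.63, 4.04 and 3.82 in WT cells and 4.51, 4.71, 4.72 and 4.59 in KO cells. Every library with ACLY was below every KO library, and the log2 difference was -0.85 in Nuc, -0.36 in Cyto and -0.72 in WT cells (limma adjusted p = 6.15e-06, 0.0110 and 4.07e-05). With 10 mM glucose the values were 3.85, 3.67, 3.84 and 3.67 in Nuc cells, 4.002, 3.91 and 4.17 in Cyto cells, 3.46, 3.85, 3.76 and 4.01 in WT cells and 4.53, 4.53, 4.58 and 4.61 in KO cells. Again no library with ACLY reached the KO range, with differences of -0.80, -0.54 and -0.79 (adjusted p = 2.96e-05, 0.00290 and 4.58e-05). Of the 21 cytosolic genes, Tars3 alone was called lower than KO in all 6 comparisons.

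Among the mitochondrial genes in 1 mM glucose, Nars2, the mitochondrial asparagine enzyme, rose most. Its log2 values ranged from 3.79 to 4.38 in Nuc, 4.14 to 4.66 in Cyto and 3.91 to 4.35 in WT cells, against 2.73 to 3.15 in KO cells, with no overlap. The log2 fold changes were 1.24, 1.48 and 1.20 (limma adjusted p = 3.08e-06, 2.85e-07 and 5.48e-06). Rars2, the mitochondrial arginine enzyme, was higher by 0.92, 0.88 and 0.61. On the other side, Wars2, the mitochondrial tryptophan enzyme, was lower by 0.56 in Nuc and 0.49 in WT cells, with a difference of -0.16 in Cyto cells that was not called (adjusted p = 0.0984). In Cyto cells Sars2 (mitochondrial serine) was lower by 0.58 (limma adjusted p = 0.000847) and Cars2 (mitochondrial cysteine) by 0.38 (0.00476), and the cytosolic Qars1 (glutamine) was lower by 0.45 (0.000178). Hars2 (histidine) and Iars2 (isoleucine) were lower in each construct, by 0.50, 0.35 and 0.30 for Hars2 and by 0.43, 0.28 and 0.23 for Iars2. The call of Hars2 in WT cells rests on few libraries: without WT replicate 1, KO replicate 2 or KO replicate 4 its adjusted p was 0.0642, 0.0714 and 0.0647.

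Mars2, the mitochondrial methionine enzyme, was the one mitochondrial gene called in opposite directions in the media, in each of the 3 comparisons with KO. At 1 mM its log2 values were 3.73, 3.67, 3.66 and 3.72 in Nuc cells, 3.63, 3.55, 3.63 and 3.42 in Cyto cells, 3.65, 3.31, 3.58 and 3.42 in WT cells and 2.81, 3.15, 3.11 and 3.12 in KO cells. Every library with ACLY was above every KO library there, with log2 differences of 0.64, 0.51 and 0.44. With 10 mM glucose the values were 3.56, 3.47, 3.36 and 3.06 in Nuc cells, 2.90, 3.13 and 3.46 in Cyto cells, 3.36, 2.94, 3.26 and 3.18 in WT cells and 3.95, 4.12, 3.74 and 3.76 in KO cells. Every library with ACLY was below every KO library in that medium, with differences of -0.53, -0.73 and -0.71 (limma adjusted p = 0.0110, 0.00257 and 0.00173).

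**Figure D2:**
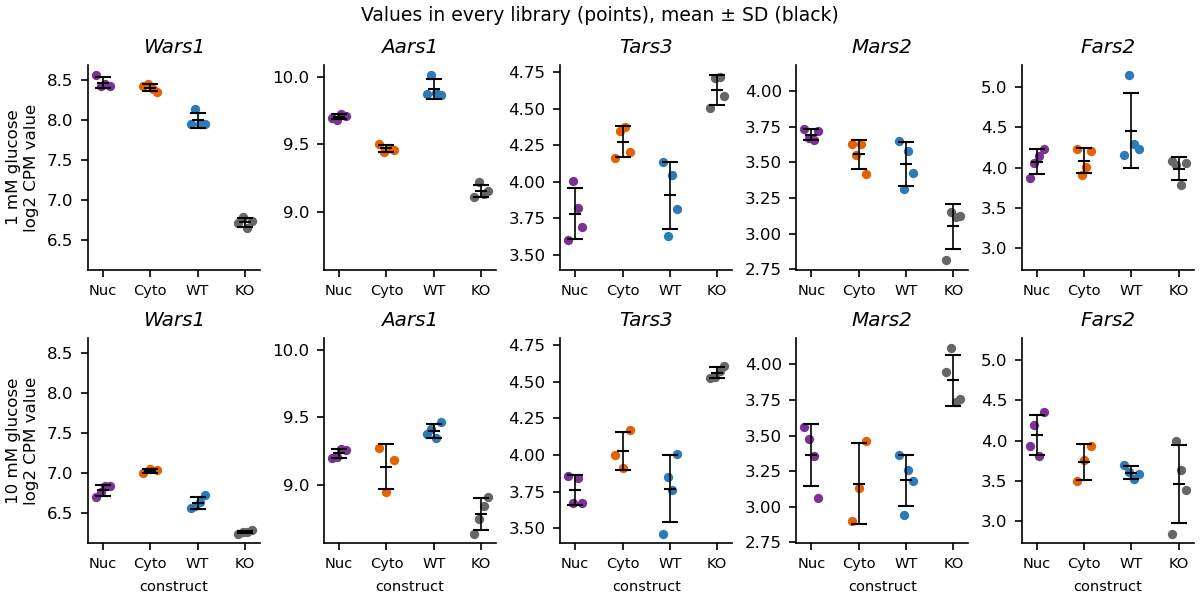
Log2 values of 5 synthetase genes in every library (points) by construct, with the group mean and SD in black, in 1 mM glucose (top row) and 10 mM glucose (bottom row). The 10 mM Cyto group has 3 libraries and every other group 4. The tables are separate batches and may have been normalized separately, so levels are read within a row. Tars3 is highest in KO in both rows, and Mars2 is lowest in KO at 1 mM and highest in KO at 10 mM.

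The cytosolic genes split in 10 mM glucose. Of the 21, 7 rose and 8 fell in Nuc cells, 10 rose and 6 fell in Cyto cells, and 6 rose and 5 fell in WT cells relative to KO, with median log2 fold changes of 0.02, 0.14 and -0.0011. Of all genes, 45.3% were called between Nuc and KO (22.7% higher, 22.7% lower), 38.5% between Cyto and KO (19.6% higher, 18.9% lower) and 40.8% between WT and KO (20.6% higher, 20.2% lower). Few mitochondrial genes passed the test. Of 17, 1 rose and 3 fell in Nuc cells, 0 rose and 3 fell in Cyto cells (1 higher and 4 lower at unadjusted p under 0.05), and 1 rose and 2 fell in WT cells. The median log2 fold changes over the 17 were -0.19, -0.0995 and -0.005. The within-group SD of the mitochondrial genes other than Lars2 was larger in this medium, with a median of 0.22 against 0.14 in 1 mM glucose, and that of the cytosolic genes was 0.10 against 0.11.

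The 21 genes were also divided by a list of cytosolic synthetases reported as ATF4 targets, taken from general knowledge with earlier results of these data known (Aars1, Cars1, Eprs1, Gars1, Iars1, Lars1, Mars1, Nars1, Sars1, Tars1, Wars1 and Yars1). Of these 12, 7 rose in Nuc, 9 in Cyto and 5 in WT cells in 10 mM glucose, and 0 fell in any of them (at unadjusted p under 0.05, 0, 0 and 1 fell). Their median log2 fold changes were 0.20, 0.34 and 0.07. Of the 9 other cytosolic genes, 0 rose and 8 fell in Nuc cells (1 rose at unadjusted p under 0.05), 1 rose and 6 fell in Cyto cells, and 1 rose and 5 fell in WT cells, with medians of -0.49, -0.28 and -0.32. In 1 mM glucose 11 of the 12 listed genes rose in each of Nuc, Cyto and WT cells, and of the 9 others 5, 6 and 6 rose and 1, 2 and 1 fell. Of all genes, 60%, 64.7% and 58.2% were called against KO in Nuc, Cyto and WT cells in 1 mM glucose. In 10 mM glucose 45.3%, 38.5% and 40.8% were called. The 5 of 12 called in WT cells in 10 mM glucose were near the share of all genes called in either direction. No test of the list itself was made.

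**Figure D3:**
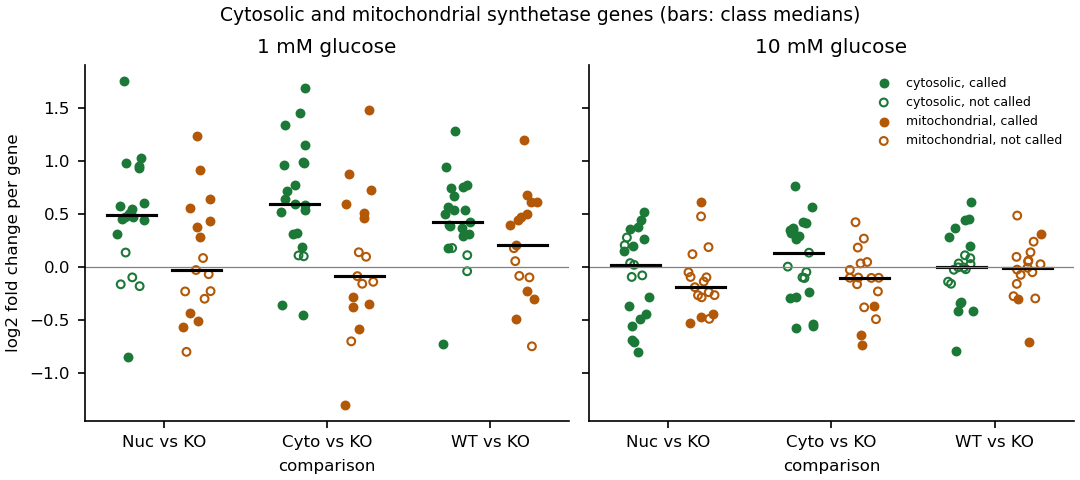
Log2 fold change of each cytosolic (green) and mitochondrial (brown) synthetase gene for Nuc, Cyto and WT cells against KO cells, in 1 mM glucose (left) and 10 mM glucose (right). Filled points passed a limma adjusted p of 0.05 and bars are class medians, which are 0.49, 0.59 and 0.43 for the cytosolic genes in 1 mM glucose and 0.02, 0.14 and -0.0011 with 10 mM.

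The genes that rose in 10 mM glucose included Wars1, Aars1, Sars1 (serine), Yars1 and Eprs1, the enzyme that joins glutamate and proline activities in 1 chain. Wars1 had log2 values of 6.69, 6.76, 6.83 and 6.84 in Nuc cells, 6.99, 7.04 and 7.04 in Cyto cells, 6.56, 6.58, 6.64 and 6.73 in WT cells and 6.24, 6.25, 6.26 and 6.28 in KO cells. All libraries with ACLY were above all KO libraries, with log2 differences of 0.52, 0.77 and 0.37 (limma adjusted p = 1.30e-06, 7.49e-08 and 7.59e-05). Aars1 values were 9.20, 9.20, 9.27 and 9.26 in Nuc cells, 9.27, 8.95 and 9.18 in Cyto cells, 9.38, 9.41, 9.34 and 9.46 in WT cells and 8.64, 8.75, 8.84 and 8.90 in KO cells. The groups with ACLY did not overlap KO, and the differences were 0.45, 0.35 and 0.62 (adjusted p = 5.66e-05, 0.00142 and 3.02e-06). Sars1 was higher by 0.36, 0.57 and 0.45, Yars1 by 0.27, 0.42 and 0.28 and Eprs1 by 0.20, 0.42 and 0.20 in Nuc, Cyto and WT cells, all called. Gars1 rose by 0.38 in Nuc cells (5.90e-05) and Qars1 by 0.45 in WT cells (0.00877).

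The genes that fell in 10 mM glucose included Farsb, the beta subunit of the cytosolic phenylalanine enzyme, Kars1 (lysine) and Rars1 (arginine), the last 2 being members of the multisynthetase complex. Farsb ranged from 5.59 to 5.95 in Nuc, 5.84 to 5.98 in Cyto and 6.06 to 6.23 in WT cells, against 6.42 to 6.55 in KO cells. The groups with ACLY were all below KO, by 0.70, 0.57 and 0.34 on the log2 scale (limma adjusted p = 2.47e-06, 6.40e-05 and 0.00313). Kars1 fell by 0.55 in Nuc and 0.55 in Cyto cells, and its difference in WT cells was -0.02 (adjusted p = 4.33e-06, 1.59e-05 and 0.803). Rars1 fell by 0.36, 0.28 and 0.41. Of the mitochondrial genes, Cars2 fell by 0.64 in Cyto cells (0.00102).

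Fars2, the mitochondrial phenylalanine enzyme, had the highest called fold change between Nuc and KO in 10 mM glucose, on a wide spread. Its log2 values were 3.93, 4.20, 3.81 and 4.36 in Nuc cells, 3.50, 3.76 and 3.94 in Cyto cells, 3.70, 3.62, 3.52 and 3.58 in WT cells and 2.85, 3.99, 3.63 and 3.39 in KO cells. The Nuc and KO libraries overlapped, and the difference of 0.61 (limma adjusted p = 0.0176) was 0.40 without KO replicate 1 (0.0583) and 0.52 without Nuc replicate 4 (0.0539). At 1 mM the values were 3.87, 4.06, 4.14 and 4.23 in Nuc cells, 4.23, 3.90, 4.01 and 4.20 in Cyto cells, 4.16, 5.16, 4.30 and 4.23 in WT cells and 4.08, 4.03, 3.78 and 4.06 in KO cells. WT replicate 2 was far above the other WT libraries, and the WT difference of 0.47 from KO (adjusted p = 0.0255) was 0.24 without it (0.0587) and 0.40 without KO replicate 3 (0.0774).

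Fold changes of the cytosolic genes over KO were larger in 1 mM than in 10 mM glucose for most members. The difference of the log2 fold changes, 1 mM minus 10 mM, was called as positive for 16 of 21 cytosolic genes and negative for 1 in Nuc cells, for 16 and 1 in Cyto cells, and for 14 and 0 in WT cells (at unadjusted p under 0.05, 15 and 0). Its median over the 21 was 0.63, 0.62 and 0.51, against -0.02, -0.03 and -0.02 over all 11931 genes in both tables. Of those genes, 36.5% were called for Nuc against KO (17.8% positive, 18.7% negative), 44.7% for Cyto against KO (21.5% and 23.2%) and 26.2% for WT against KO (13.5% and 12.7%). Of the 17 mitochondrial genes, 7 were positive and 0 negative in Nuc cells (2 negative at unadjusted p under 0.05), 5 and 2 in Cyto cells, and 4 and 1 in WT cells. The medium and the batch cannot be told apart in these differences.

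The members with the largest positive differences were Wars1, Farsb and Mars2 in Nuc cells (1.23, 1.20 and 1.17, SE 0.07, 0.11 and 0.18), Farsb, Mars2 and Nars1 in Cyto cells (1.29, 1.24 and 1.16, SE 0.11, 0.19 and 0.08), and Mars2, Wars1 and Lars1 in WT cells (1.15, 0.91 and 0.77, SE 0.18, 0.07 and 0.15). Qars1, the glutamine enzyme, was negative in Nuc and Cyto cells, at -0.46 and -0.82. The Nuc value of Qars1 passed narrowly (limma adjusted p = 0.0227) and missed the threshold without KO replicate 4 or Nuc replicate 3 of the 10 mM medium (0.0631 and 0.0583) or Nuc replicate 3 of the 1 mM medium (0.0504). Calls of opposite direction in the media were made for 6 members in Nuc cells (Farsb, Hars1, Kars1, Mars2, Rars1 and Vars1 higher than KO in 1 mM and lower in 10 mM glucose). In Cyto cells they were made for Farsa, Farsb, Hars1, Kars1, Mars2 and Rars1 in that direction and for Qars1 in the other, and in WT cells for Farsb, Hars1, Mars2 and Rars1. The 10 mM call of Qars1 in Cyto cells was lost in 9 alternatives. Without the 10 mM libraries numbered 4 its log2 fold change was 0.11 (limma adjusted p = 0.386). The members called higher than KO in both media were 7 in Nuc cells, 9 in Cyto cells and 6 in WT cells, among them Aars1, Eprs1, Sars1, Wars1 and Yars1 in each construct. Calls in both media were not counted over all genes. The counts therefore describe the members and do not set them apart from other genes.

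**Figure D4:**
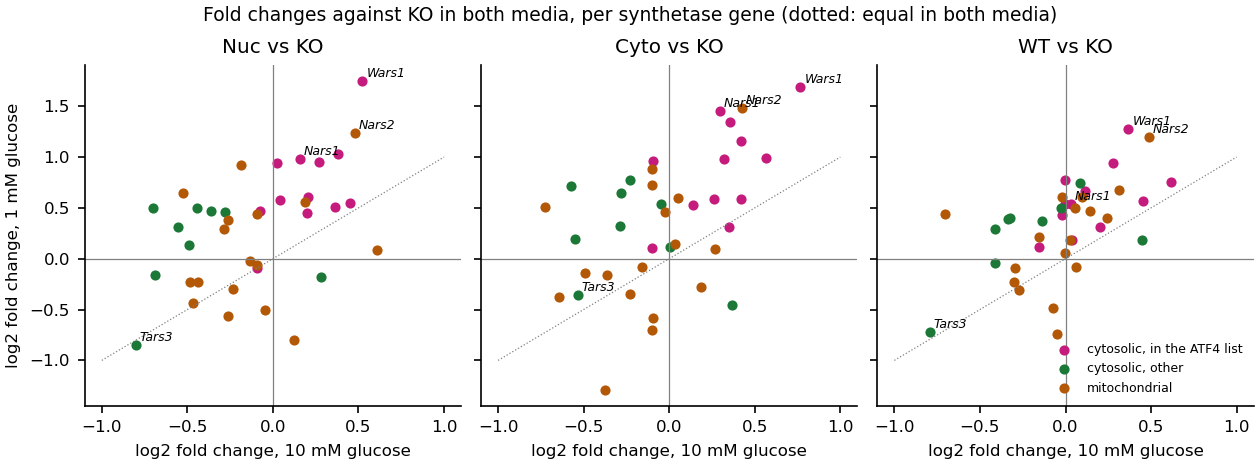
Log2 fold change against KO of each synthetase gene in 10 mM glucose (x axis) and 1 mM glucose (y axis) for Nuc, Cyto and WT cells, with cytosolic genes in the ATF4 list in pink, other cytosolic genes in green and mitochondrial genes in brown. The dotted line marks equal fold changes. Wars1 and Nars2 lie high in each panel, and Tars3 is below 0 on both axes.

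Nuc and Cyto cells, which hold the enzyme with opposite localization sequences, differed at fewer members than either did from KO. The same held for all genes. The 17 of 38 members called in 1 mM glucose and the 9 in 10 mM were near the shares of all genes given below. In 1 mM glucose 2 cytosolic genes were higher and 9 lower in Nuc than in Cyto cells, with a median of -0.17, and 3 mitochondrial genes were higher and 3 lower. The background was 41% of all genes (20.4% higher, 20.5% lower). With 10 mM glucose 0 cytosolic genes were higher and 7 lower (0 and 12 at unadjusted p under 0.05), with a median of -0.15, and 1 mitochondrial gene was higher and 1 lower, against a background of 31% (15.3% higher, 15.7% lower). Leaving out Nuc replicate 4 in 10 mM glucose gave 1 member higher and 12 lower, against 1 and 8 with it.

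Tars1 had the largest decrease in 1 mM glucose, with a mean of 8.83 in Nuc and 9.60 in Cyto cells and a log2 difference of -0.77 (limma adjusted p = 2.84e-06). Sars1 and Nars1 were lower by 0.48 and 0.47 (8.92e-05 and 2.12e-05) and Tars3 by 0.49 (0.00211). Aars2 (mitochondrial alanine) was higher by 0.41, Cars2 (mitochondrial cysteine) by 0.35 and Qars1 by 0.28. The calls of Cars2 and Qars1 were lost without Cyto replicate 3 (adjusted p = 0.0529) and without Nuc replicate 4 (0.0642). At 10 mM, Iars2 averaged 6.18 in Nuc and 6.83 in Cyto cells (-0.65, 4.07e-06) and Iars1 7.78 and 8.12 (-0.34, 0.00287). Tars1 was lower by 0.31 there (0.0116, and 0.0546 without Cyto replicate 4), and Cars2 was higher by 0.51 (0.00748).

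The log2 differences between Nuc and Cyto cells were called as unequal in the media for 7 members, with 4 positive and 3 negative. That was near the share of all genes (19%, with 9.47% positive and 9.48% negative) and does not set the members apart. The medium and the batch cannot be told apart here. Among the 7 were Iars2 at 0.49 (SE 0.09, limma adjusted p = 0.000155), Wars1 at 0.31 and, on the other side, Wars2 at -0.51, Tars1 at -0.45 and Nars1 at -0.33. The Wars2 call was lost without Cyto replicate 1 of the 10 mM medium (adjusted p = 0.0852).

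Nuc and Cyto cells were also set against WT cells, in comparisons that share the WT libraries. Of the 21 cytosolic genes in 1 mM glucose, 11 were higher and 4 lower in Cyto than in WT cells, with a median of 0.28 and a background of 53.2% (25.7% higher, 27.5% lower). In Nuc cells 6 were higher and 6 lower than in WT, with a median of 0.01 and a background of 39.1% (19.7% and 19.4%). Nars1 was higher than WT by 0.91 in Cyto and 0.44 in Nuc cells, and Qars1 lower by 0.63 and 0.36. The count for Nuc against WT depended on single libraries: 7 members were higher and 10 lower, against 4 and 6 without Nuc replicate 1 and 12 and 9 without WT replicate 2. Also higher than WT in that medium were Tars1 by 0.67 and Tars2 (mitochondrial threonine) by 0.51 in Cyto cells, and Gars1 by 0.49 and Wars1 by 0.47 in Nuc cells. Sars2 was lower than WT by 0.64 in Cyto cells (limma adjusted p = 0.000535). In Nuc cells Vars2 (mitochondrial valine) was lower by 0.46 and Sars2 by 0.35, and both calls (0.0293 and 0.0394) were lost without Nuc replicate 1 (0.1055 and 0.1381) or WT replicate 2 (0.055 and 0.1158), among other libraries. At 10 mM, 7 cytosolic genes were higher and 3 lower in Cyto than in WT cells (background 31.5%, with 15.9% higher and 15.6% lower), and 3 were higher and 5 lower in Nuc than in WT cells (28.8%, with 15% and 13.8%). Kars1 was lower than WT by 0.53 in both forms, Gars1 was higher than WT by 0.38 in Nuc cells, and Iars1 was higher than WT by 0.42 and Iars2 by 0.48 in Cyto cells. In Cyto cells Cars2 was lower than WT by 0.70, and Aars1 by 0.27 (limma adjusted p = 0.0121, and 0.0958 without Cyto replicate 2). In Nuc cells Vars1 and Farsb were each lower than WT by 0.37. Wars1 and Nars1 were higher there by 0.16 and 0.13, and both calls (0.0464 and 0.0314) were lost without WT replicate 2 (0.1182 and 0.0852) or Nuc replicate 3 (0.1188 and 0.0761), among other libraries.

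For 14 amino acids both a cytosolic and a mitochondrial enzyme were measured under matching symbols. At 1 mM the cytosolic gene had the higher log2 fold change over KO in 10 of 14 pairs in Nuc cells, 11 in Cyto cells and 11 in WT cells, with a median difference of 0.55, 0.75 and 0.34. The tryptophan pair differed most in Nuc cells, where Wars1 rose by 1.75 and Wars2 was at -0.56. The asparagine pair moved together, with 0.98 for Nars1 and 1.24 for Nars2 in Nuc cells, 1.45 and 1.48 in Cyto cells and 0.54 and 1.20 in WT cells. The arginine and methionine pairs ran the other way in each of the 3 comparisons, with Rars2 and Mars2 above Rars1 and Mars1. At 10 mM the cytosolic gene was higher in 8, 11 and 8 of 14 pairs. These counts are descriptions, and no test was made over the pairs.

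The cytosolic enzymes were also divided by complex and by structural class, with no test of the difference between divisions. The called shares of all genes against KO in 1 mM glucose were 60% in Nuc, 64.7% in Cyto and 58.2% in WT cells. Of the 8 cytosolic members of the multisynthetase complex, 5 rose in Nuc, 5 in Cyto and 5 in WT cells in 1 mM glucose and 0, 1 and 0 fell (limma; 1, 1 and 0 at unadjusted p under 0.05). Of the 13 cytosolic enzymes outside it, 11, 12 and 12 rose and 1, 1 and 1 fell, the one being Tars3. Synthetases fall into 2 structural classes with unrelated catalytic folds. Of the 9 cytosolic class I enzymes 7, 7 and 7 rose, and of the 11 cytosolic class II enzymes 8, 9 and 9 rose, leaving aside Eprs1, which holds both kinds.

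**Figure D5:**
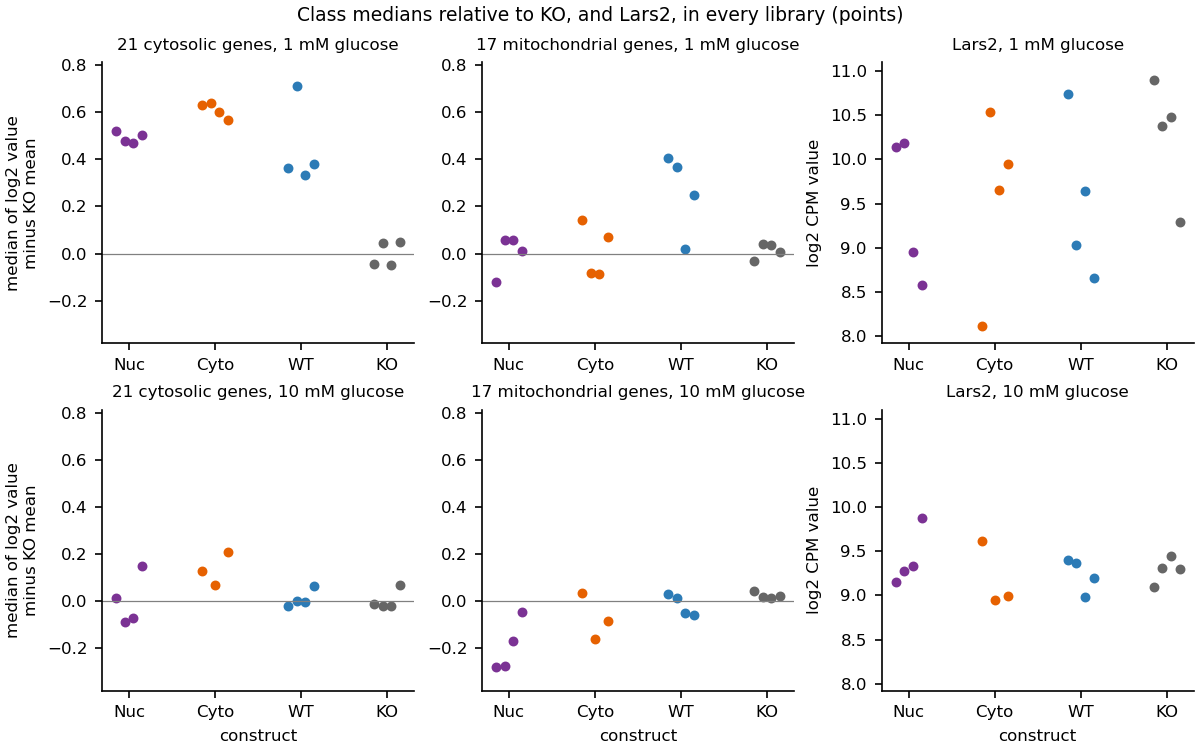
For every library (points), the median over the 21 cytosolic or 17 mitochondrial genes of the log2 value minus that gene's mean in KO cells of the same medium, and the log2 value of Lars2. Cytosolic medians in 1 mM glucose lie between 0.33 and 0.71 in all libraries with ACLY and within 0.05 of 0 in KO, and Lars2 varies by more than 1 log2 unit within each construct at 1 mM. KO libraries lie around 0 by construction, since their own mean is subtracted.

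Measured per library, the rise of the cytosolic genes in 1 mM glucose was present in each library with ACLY. The median over the 21 genes of the value minus the KO mean ran from 0.47 to 0.52 in Nuc, 0.57 to 0.64 in Cyto and 0.33 to 0.71 in WT libraries, the highest WT value being that of replicate 2, and from -0.05 to 0.05 in the KO libraries themselves. The KO libraries lie around 0 by construction, since their own mean is subtracted. The measure restates the fold changes library by library and is no separate support for them. For the mitochondrial genes the same measure ran from -0.12 to 0.06, -0.09 to 0.14 and 0.02 to 0.41, against -0.03 to 0.04 in KO. At 10 mM the cytosolic medians ran from -0.09 to 0.15, 0.07 to 0.21 and -0.02 to 0.07, against -0.02 to 0.07 in KO. The mitochondrial medians in that medium ran from -0.28 to -0.05, -0.16 to 0.04 and -0.06 to 0.03, against 0.01 to 0.05 in KO.

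Per kilobase of the longest coding transcript in the GRCm38 annotation, the cytosolic genes were expressed well above the mitochondrial ones. In 1 mM glucose the median level was 6.43, 6.54, 6.25 and 5.95 over the cytosolic genes and 2.69, 2.74, 3.02 and 2.76 over the mitochondrial genes in Nuc, Cyto, WT and KO cells (log2 per kilobase). In KO cells of that medium Gars1 (7.39) and Nars1 (7.12) were the highest cytosolic genes, and Tars3 (2.96) was the lowest, followed by Qars1 (4.91). Iars2 (4.19) was the highest mitochondrial gene other than Lars2, and Mars2 (-0.45) was the lowest. The Mars2 transcript used was the longest of the members, at 11294 bases. Before division by length Pars2 was the lowest mitochondrial gene in these cells, with a mean log2 value of 2.31 against 3.05 for Mars2.

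Lars2, the mitochondrial leucine enzyme, stood outside its class. Its level per kilobase was 7.50, 7.60, 7.56 and 8.30 in Nuc, Cyto, WT and KO cells in 1 mM glucose. Its spread between libraries of a group was the highest of the 38 members there, with a pooled SD of 0.87 on the log2 scale and values from 8.12 to 10.90, and no difference between constructs was called (-0.80, -0.70 and -0.75 in Nuc, Cyto and WT cells against KO, limma adjusted p = 0.201, 0.254 and 0.234). The SD was 0.26 in 10 mM glucose and the values ran from 8.95 to 9.87. It shares 0.574% and 0.486% of its 31-base words with 2 unlisted transcripts, AA474408 and Gm15564. The search covered transcripts of the annotation alone, so sharing with sequences outside it was not examined. Whether the level and spread of Lars2 are those of its own transcript was not tested. Without Lars2 the mitochondrial median per kilobase was 2.64, 2.70, 2.90 and 2.70 in 1 mM glucose.

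The partners of the synthetases in protein synthesis were read from lists chosen with earlier results known. Of all genes, 60%, 64.7% and 58.2% were called in Nuc, Cyto and WT cells against KO in 1 mM glucose. With 10 mM these shares were 45.3%, 38.5% and 40.8%. The 3 scaffold proteins of the multisynthetase complex (Aimp1, Aimp2 and Eef1e1) rose in 1 mM glucose in 2, 3 and 3 cases in Nuc, Cyto and WT cells, with Eef1e1 at 0.75, 1.08 and 0.62, and 0 fell (also 0 at unadjusted p under 0.05). In 10 mM glucose 0 rose and 2, 1 and 2 fell (0 rose at unadjusted p under 0.05), with Aimp2 at -0.49, -0.58 and -0.49. Xpot, which exports transfer RNA from the nucleus, was higher by 0.95, 0.86 and 0.71 in 1 mM and by 0.52, 0.49 and 0.68 in 10 mM glucose (all limma adjusted p of 0.00106 or less). Of the 8 genes of transfer RNA export and proofreading, 4, 4 and 6 rose and 1, 0 and 0 fell in 1 mM glucose (1, 1 and 0 fell at unadjusted p under 0.05). Of the 4 subunits of elongation factor 1, which brings charged transfer RNA to the ribosome, 1 rose and 1 fell in Nuc cells, 0 rose and 3 fell in Cyto cells (0 rose at unadjusted p under 0.05) and 3 rose and 0 fell in WT cells in 1 mM glucose (0 fell at unadjusted p under 0.05). Eef1a1, its main subunit, was lower than KO by 0.48 in Cyto cells and higher by 0.30 in WT cells.

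On the mitochondrial side, Qrsl1, a subunit of the amidotransferase that makes mitochondrial Gln-tRNA, was higher by 0.93, 0.80 and 1.15 in Nuc, Cyto and WT cells in 1 mM glucose. Of the 4 genes of mitochondrial Gln-tRNA and Met-tRNA modification, 1, 2 and 1 rose and 0, 1 and 1 fell (1, 1 and 2 fell at unadjusted p under 0.05). Of 8 listed mitochondrial translation factors 2, 2 and 4 rose and 1, 1 and 1 fell, with Gfm1, an elongation factor, at 0.55, 0.66 and 0.47 and Tsfm, the exchange factor of the elongation factor Tufm, at 0.58, 0.58 and 0.94. In 10 mM glucose 0, 0 and 0 of the 8 rose and 1, 0 and 0 fell (at unadjusted p under 0.05, 0, 0 and 1 rose and 2, 1 and 1 fell). The called shares of all genes were 60%, 64.7% and 58.2% in 1 mM and 45.3%, 38.5% and 40.8% in 10 mM glucose. In 1 mM glucose the translation factors were called less often than all genes in Nuc and Cyto cells and about as often in WT cells. In 10 mM glucose they were called less often in each construct.

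The ATF4 pathway outside the synthetases was read from a list of the same kind. Of 19 other reported ATF4 targets, 17 rose and 1 fell in Nuc cells, 16 rose and 2 fell in Cyto cells and 17 rose and 2 fell in WT cells in 1 mM glucose, with median log2 fold changes of 0.75, 1.03 and 0.43. The called shares were thus 94.7%, 94.7% and 100% of the list, beside the 60%, 64.7% and 58.2% of all genes. Aldh18a1, an enzyme of proline synthesis, was higher by 1.09, 1.16 and 0.75 (limma adjusted p = 3.62e-12, 1.66e-12 and 5.14e-10). In 10 mM glucose 7, 6 and 6 rose and 3, 2 and 3 fell, with medians of 0.16, 0.05 and 0.10. There the called shares of the list, 52.6%, 42.1% and 47.4%, were near the 45.3%, 38.5% and 40.8% of all genes. Nupr1, a stress-induced chromatin protein, was higher there by 1.78, 1.49 and 0.96, and Slc7a11, the cystine importer, was at 0.66, -0.28 and -1.77 relative to KO, called in Nuc and WT cells. Of 13 integrated stress response factors, 8, 8 and 7 rose and 1, 0 and 1 fell in 1 mM glucose, and 5, 8 and 5 rose and 1, 0 and 1 fell in 10 mM glucose (for both zeros in Cyto cells, 0 fell at unadjusted p under 0.05). Beside them stand the 60%, 64.7% and 58.2% of all genes called in 1 mM and the 45.3%, 38.5% and 40.8% in 10 mM glucose. The called counts of these factors were near those shares, except in Cyto cells in 10 mM glucose, where they were above. Atf4 itself, named after its values were seen, was higher by 0.44, 0.77 and 0.39 in 1 mM glucose, all called, and by 0.14, 0.28 and 0.16 in 10 mM glucose, where the Cyto value was called (limma adjusted p = 0.157, 0.0146 and 0.105). Ddit3, the transcription factor CHOP, was higher by 2.72, 2.62 and 2.09 in 1 mM glucose and by 1.03, 1.18 and 1.23 in 10 mM glucose. Ppp1r15a, which directs dephosphorylation of eIF2 alpha, was higher by 2.56, 3.34 and 1.98 in 1 mM glucose. Whether these genes and the synthetases moved through ATF4 was not tested. In 10 mM glucose, where Wars1 also rose, 1 of 6 interferon gamma response genes rose in Nuc and Cyto cells and 0 in WT cells (0 at unadjusted p under 0.05), while 2, 5 and 1 fell. The called shares of all genes there were 45.3%, 38.5% and 40.8%.

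Some members share sequence with other transcripts, and their values are uncertain to that extent because no source used here gives the counting settings. Over the 31-base words of their protein-coding transcripts, Iars2 shares 30.2% with Rab3gap2 on the opposite strand, Aars1 20.3% with Exosc6 on the same strand, Cars2 19.4% with Naxd on the opposite strand, and Iars1 17% with the pseudogene Gm4849. Hars1 shares 8.32% with Hars2, which lies head to head with it, and Farsb shares 9.45% with Sgpp2. Mars1 shares 1.28% with Ddit3, the neighbour that rose. Wars1, Gars1, Nars1, Lars1, Yars1, Sars1 and Eprs1 of the rising genes had few or no shared words: 0 at the minimum of 10 words used here.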

How the data were processed

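RNA from 32 libraries of Acly KO mouse embryonic fibroblasts was sequenced, and 31 were analysed. Per the submitters' processing notes the tools were kallisto, edgeR and limma and the build GRCm39, and no versions are recorded there. The deposited values are log2, on a scale close to CPM, as the sums of the back-transformed values show, in 1 table for each glucose concentration. Depth is unknown. Entries without a symbol (1 per table) were left out. For each table, limma 3.58.1 (R 4.3.3) fitted the 4 construct means with an intensity trend, and p-values were adjusted over the whole table by Benjamini-Hochberg. A gene was called at an adjusted p under 0.05. Differences between media came from 1 fit of 8 groups over the 11931 genes in both tables. The fits were tested on simulated data. In each comparison with KO or between Nuc and Cyto, up to 4 called members at each end were named, and up to 3 in comparisons with WT and in differences between media, with up to 3 genes of each other list, those with the smallest adjusted p. Members and lists were chosen with earlier results of these data known. Alternatives covered normalization, trend, array weights, filters, groups fitted, the replicate block and single libraries. Promoters came from RefSeq GRCm38.p6, and transcript lengths and shared 31-base words from a GRCm38 annotation, which is not the build of the files. Results for a few genes are not reported here by name, and those genes remain in the fits and class counts.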

Additional observations from a re-analysis of the deposited data

Results flagged for a closer look

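In 1 mM glucose, single libraries lay far from the other 3 of their group for several members. WT replicate 2 was far above the others for Aars1 (log2 value 10.02), Fars2 (5.16) and Wars1 (8.135). Mars2 was low in KO replicate 1 (2.81). In 10 mM glucose the median log2 value over the 17 mitochondrial genes was apart in Nuc replicate 4, at 4.51. Of 49 groups of 4 libraries examined with Dixon's test, chance alone marks about 1 in 20.

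The log2 fold changes below differed between 1 mM and 10 mM glucose by the limma test of the difference itself, given as 1 mM minus 10 mM, where the medium and the batch cannot be told apart. For Nuc against KO they were Wars1 (1.23), Farsb (1.20), Mars2 (1.17) and Qars1 (-0.46). For Cyto against KO they were Farsb (1.29), Mars2 (1.24), Nars1 (1.16), Qars1 (-0.82) and Iars2 (-0.46). For WT against KO they were Mars2 (1.15), Wars1 (0.91), Lars1 (0.77) and Wars2 (-0.42). For Nuc against Cyto they were Iars2 (0.49), Wars2 (-0.51), Tars1 (-0.45) and Nars1 (-0.33). The Wars2 difference in WT cells missed the threshold when any of 5 single libraries was left out.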

How the results depend on the processing

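Of 95 named member calls, 14 missed the threshold under at least 1 alternative and 0 changed sign. Among all 300 member calls, quantile normalization ended 16 and turned Aars1 for Nuc against WT in 1 mM glucose to 0.0204 (adjusted p = 0.7545, against -0.21). Quantile normalization also moved 3 medians in 1 mM glucose: the mitochondrial ones to 0.4154 for WT against KO (against 0.21) and 0.1909 for Cyto against KO (against -0.08), and the cytosolic one to 0.3912 for Nuc against KO (against 0.49). Fitting only the 2 groups gave 8 members called for Nuc against WT in 1 mM glucose (against 17). Array weights gave 14 for Nuc against Cyto and 16 for Nuc against WT in 10 mM glucose (against 9 and 9). For each, the cause was not tested. Leaving out 1 library gave 10 to 21 calls for Nuc against WT in 1 mM glucose, 27 to 29 for Nuc, 30 for Cyto and 27 to 30 for WT against KO, and with 10 mM 18 to 22, 14 to 20 and 13 to 15. An offset of 1 or a filter at a mean log2 value of 0 ended no call. With each gene's group mean subtracted, same-numbered libraries correlated between -0.18 and 0.36, in no comparison all above 0.1. The numbers were therefore not taken as pairs. The highest were those of the 10 mM libraries numbered 4 (0.36 for Nuc with KO, 0.23 for Nuc with WT). With a replicate block, 28, 30 and 31 members were called for Nuc, Cyto and WT against KO in 1 mM glucose, against 21, 20 and 14 with 10 mM. Added after seeing the data were 2 settings: leaving out the 10 mM libraries numbered 4 together, which gave 21, 18 and 17 calls against KO, and the medians without Lars2, which moved by less than the spread between libraries. No counts are given, so what depth limits cannot be stated.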
